A study of Rattus norvegicus with 8 samples.

Results

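Genes that build, modify and cut the extracellular matrix were followed in cultured oligodendrocyte precursor cells from Sprague Dawley rats; these proliferating glia can mature into the oligodendrocytes that form myelin. The members were the genes whose symbol begins as that of a collagen chain (Col), a laminin chain (Lama, Lamb, Lamc), a collagen prolyl 4-hydroxylase (P4ha), a lysyl hydroxylase (Plod), a lysyl oxidase (Lox), a matrix metalloproteinase (Mmp), a tissue inhibitor of metalloproteinases (Timp) or a member of the ADAM and ADAMTS families. They were 143 symbols of a table of 32662 genes; 145 rows matched, and a symbol on several rows was represented by the row with the highest mean. By role, 44 were collagens, 11 laminins, 11 collagen-modifying enzymes, 66 proteases (22 Mmp, 25 Adam and 19 Adamts), 5 ADAMTS-like proteins, which lack a protease domain, and 4 were Timp inhibitors. The other 2 matched by their letters only. Col4a3bp encodes a ceramide transporter, and Loxhd1, which is not a lysyl oxidase, was listed at 0 in all samples. Col4a3bp had 7.42, 6.77, 8.02 and 7.47 FPKM in OGD replicates 1 to 4, against 7.22, 7.99, 7.91 and 8.11 FPKM in Control replicates 1 to 4. It did not pass the test given further on (log2 change -0.07, limma adjusted p = 0.531).

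RNA was sequenced from 4 samples that had spent 6 h in oxygen glucose deprivation (OGD), a model of ischaemia in a dish in which both are withdrawn, and from 4 Control samples that had spent 6 h under normal conditions. All 8 samples came from cerebral cortex of pups aged 1 to 2 days: mixed glia grew in 20% serum, and the cells that did not adhere were then cultured for 4 to 5 days with the growth factors PDGF and FGF (10 ng/ml of each), B27 supplement (2%), glutamine (2 mM) and antibiotic (1%). Levels are FPKM, in which fragment numbers are divided by the length of the gene and the size of the library, so that genes can be compared per length. Nothing in the labels says whether samples of a group were separate cultures or animals, so the p-values reflect sample-to-sample spread that could be technical.

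Collagens are secreted triple helices, and laminins are heterotrimers of an alpha, a beta and a gamma chain that form basement membranes with type IV collagen. Inside the endoplasmic reticulum, prolyl 4-hydroxylase and the lysyl hydroxylases modify collagen chains in reactions that consume molecular oxygen, and P4ha1, P4ha2, Plod2 and Lox are textbook targets of the hypoxia-inducible factors. Mmp, ADAM and ADAMTS enzymes are zinc proteases that cut matrix or shed cell surface proteins, and Timp proteins block them. In the brain, precursor cells move and divide in a matrix rich in proteoglycans, which ADAMTS enzymes cleave.

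In OGD libraries all 4 tested collagen-modifying enzymes were higher, while 6 of 11 tested collagen and laminin chains and 4 of 5 tested membrane-type metalloproteinases were lower. Of all 11149 genes tested, 22.7% were higher and 26.8% lower. The membrane-type group was formed after the values were seen. P4ha1, the catalytic subunit of collagen prolyl 4-hydroxylase, was 5.29 times as high by mean FPKM, and all 3 lysyl hydroxylases were higher as well. Mmp15, the metalloproteinase with the highest level, was at 0.362 of its Control mean and Adam12 at 0.344. Among the inhibitors Timp3 was higher and Timp4 lower, and of the aggrecan-cutting enzymes Adamts5 was higher and Adamts4 lower.

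The test was limma on log2(FPKM + 1). It ran over the 11149 genes that reached 1 FPKM in 4 or more samples, with p adjusted over all of them and a threshold of 0.05. Of the 143 members 42 passed that filter and 101 did not. Of the 42, 7 rose and 15 fell, 16.7% and 35.7%, where 22.7% of all tested genes rose and 26.8% fell. The tested members had a median log2 change of -0.23, and all tested genes one of -0.04. Every OGD sample lay above every Control sample for 8 of the 42 and below for 16, against 20.7% and 24.1% of all tested genes. By role, 0 of 11 tested structural chains rose and 6 fell, 4 of 4 collagen-modifying enzymes rose, and of 21 proteases 1 rose and 8 fell. Adamts4 and Adamtsl3 reached 1 FPKM in samples of 1 group only and so had to differ in order to be tested. Leaving out any library of that group (Control for Adamts4, OGD for Adamtsl3) leaves them untested. Adamts5 reached it in all 4 OGD and 1 Control sample. The fold changes of genes near 1 FPKM are understated on this scale.

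**Figure D1:**
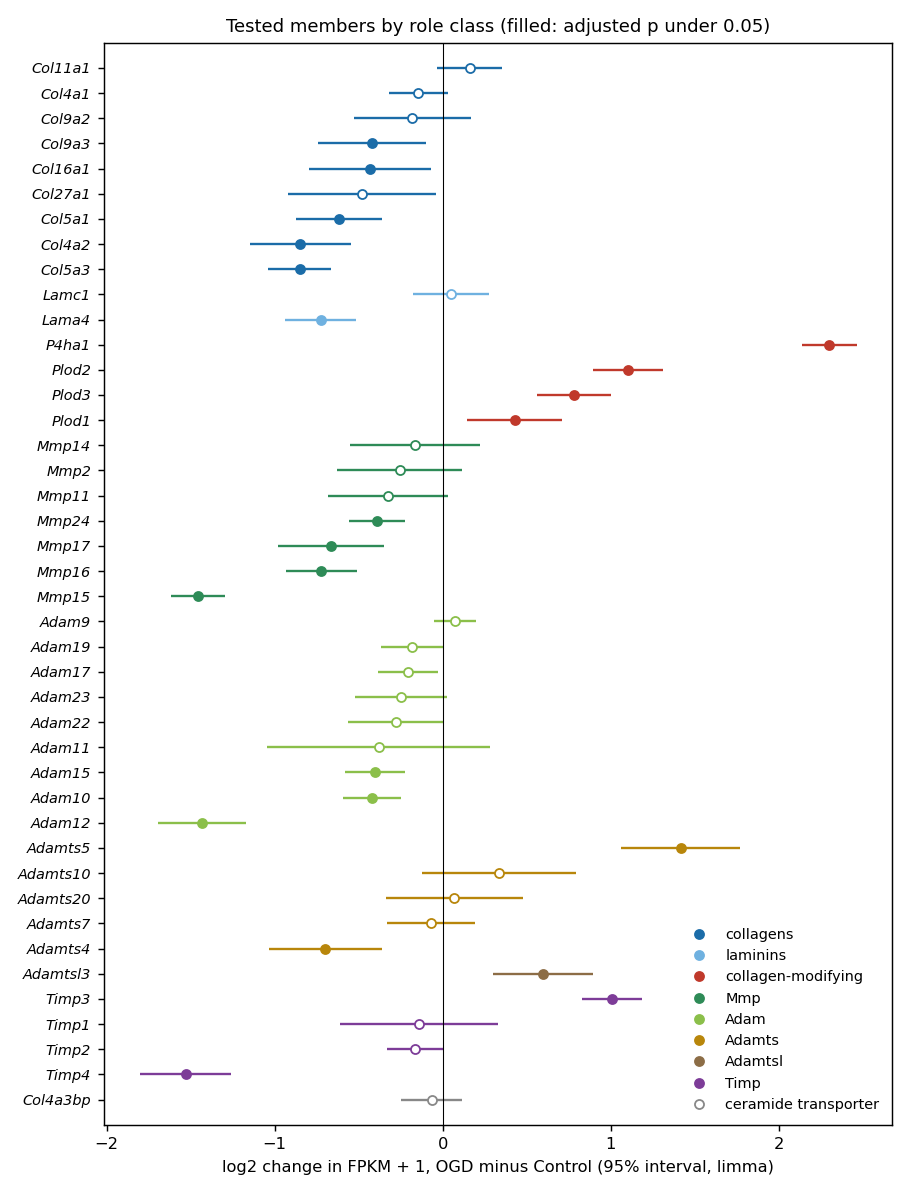
Each point is the log2 change in FPKM + 1 of a tested member, OGD minus Control (4 samples each), with its 95% interval from limma; members are grouped by role, and filled points passed an adjusted p of 0.05. The 4 collagen-modifying enzymes lie to the right of 0, while 6 of the 11 collagen and laminin chains and 4 of the 7 Mmp genes are filled and to the left. Of all tested genes 22.7% rose and 26.8% fell.

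Facts of the libraries bear on all of these values. Relative depth, read from the steps between low values, ran from 0.815 to 1.17 with Control replicate 1 set to 1, and total fragments are unknown. Pearson correlations between libraries, taken across genes (not independent points) on the log2 scale, were 0.975 to 0.986 within OGD, 0.981 to 0.988 within Control and 0.940 to 0.953 between the groups. Markers of the labelled cell type were abundant, with a summed level of 8 precursor markers of 1474 to 1703 FPKM in OGD and 2241 to 2365 FPKM in Control libraries. Of the 8, 5 fell (62.5%, against 26.8% of all tested genes) and 0 rose, while Olig2, Sox10 and Nkx2-2 did not pass. Of 12 microglial markers 11 fell (91.7%, against 26.8% of all tested genes) and 0 rose, with sums of 101.1 to 172.6 FPKM in OGD and 268.0 to 416.1 FPKM in Control libraries. Of the 11, Cx3cr1 and Ptprc reached 1 FPKM in Control libraries only and so had to differ in order to be tested. Of 6 neuronal markers, whose sums were 242.1 to 315.3 FPKM in OGD and 240.2 to 306.5 FPKM in Control libraries, Tubb3 (53.0 ± 7.17 FPKM in OGD and 30.2 ± 3.88 FPKM in Control libraries, limma adjusted p = 0.000192) and Syt1 (11.9 ± 0.785 FPKM in OGD and 7.63 ± 0.985 FPKM in Control libraries, limma adjusted p = 0.000678) rose and Snap25 fell (8.39 ± 0.954 FPKM in OGD and 10.1 ± 0.475 FPKM in Control libraries, limma adjusted p = 0.0451). Of 7 astrocyte markers, with sums of 112.4 to 117.9 FPKM in OGD and 112.7 to 115.6 FPKM in Control libraries, 5 were tested and Gfap alone passed, lower in OGD (0.480 ± 0.258 FPKM in OGD and 2.16 ± 0.618 FPKM in Control libraries, limma adjusted p = 0.000487). Gfap reached 1 FPKM in Control libraries only. Of the 5 matched endothelial markers none reached the filter, and their sum was at most 0.354 FPKM in any library. Of 12 fibroblast, pericyte and leptomeningeal markers Fbln1 and Tagln were tested and neither passed; Dcn, Rgs5 and Slc6a13 were listed at 0 in all libraries and Pdgfrb was at most 0.0431 FPKM. Of the fibroblast collagens, Col1a2 was listed at 0 in all 8 libraries, and Col1a1 and Col3a1 were at most 0.0686 and 0.169 FPKM. In bulk samples fewer cells of a type and less RNA per cell cannot be told apart, and the part of these marker changes in the results below was not tested. Within OGD, replicates 1 and 2 differed from replicates 3 and 4 in the share of 12 mitochondrial genes in the summed FPKM (28.0%, 28.6%, 22.1% and 19.2% in OGD replicates 1 to 4, against 23.5% to 26.2% in Control libraries). They also differed in relative depth (0.929, 0.815, 1.14 and 1.17 in OGD replicates 1 to 4). Col16a1, Adam11, Adamts10 and Adamts20 split the same way. So did other members, among them Plod3 and Col4a2, which passed the test. Plod3 was still above and Col4a2 still below all Control libraries in every OGD library. The part of mitochondrial share or depth in the values of any member was not tested.

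The summed level of a class gives its weight in a library, and it can rest on single genes. Mmp15 alone held 47.3% to 50.1% of the Mmp sum in OGD and 60.3% to 64.1% in Control libraries. P4ha1 made up most of the collagen-modifying sum in OGD libraries. Collagen-modifying enzymes summed to 92.5 ± 7.03 FPKM in OGD and 29.7 ± 0.950 FPKM in Control libraries, and Mmp genes to 128.4 ± 8.96 and 275.9 ± 14.9 FPKM in OGD and Control libraries (SD, n = 4 each). Adam genes summed to 132.3 ± 6.58 FPKM in OGD and 165.0 ± 13.6 FPKM in Control libraries, and collagens to 57.9 ± 6.82 and 80.1 ± 4.74 FPKM in OGD and Control libraries. Neither group overlapped the other for these 4 sums. The Timp sum was 121.9 ± 6.96 FPKM in OGD and 122.5 ± 4.19 FPKM in Control libraries, with overlapping groups, although its members moved apart.

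**Figure D2:**
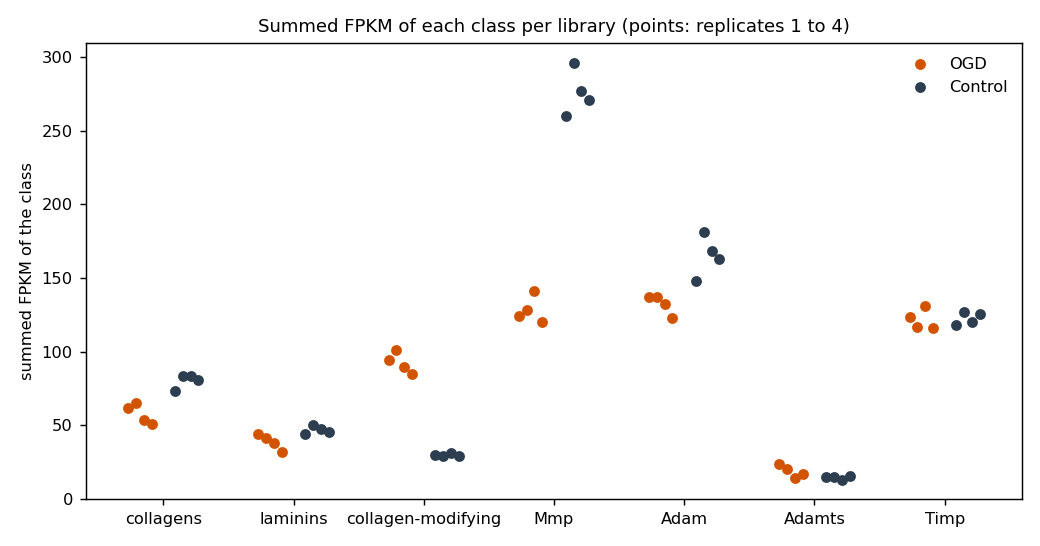
Summed FPKM of each class (vertical axis) in each library, with OGD replicates left of Control replicates. The sums of collagen-modifying enzymes are 84.8 to 101.4 FPKM in OGD and 28.9 to 31.0 FPKM in Control libraries, those of Mmp genes 120.1 to 140.9 and 260.1 to 295.6 FPKM in OGD and Control libraries, and the Timp sums overlap.

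Of the 11 collagen-modifying enzymes 4 were tested and all 4 rose, where 22.7% of all tested genes rose. P4ha1 (ENSRNOG00000050655), which hydroxylates proline so that the triple helix is stable, had 56.4, 61.2, 55.7 and 52.2 FPKM in OGD replicates 1 to 4, against 10.2, 11.2, 11.4 and 9.84 FPKM in Control replicates 1 to 4. The groups lay far apart, with the lowest OGD library more than 4 times the highest Control library. The difference on the log2 scale was 2.30 (standard error 0.07, limma adjusted p = 1.24e-08). Plod2 (ENSRNOG00000030183), the lysyl hydroxylase of collagen telopeptides, had 11.4, 12.7, 13.1 and 11.04 FPKM in OGD replicates 1 to 4, against 4.73, 4.66, 5.06 and 5.86 FPKM in Control replicates 1 to 4. Every OGD library was above every Control library, by 1.10 on the log2 scale (standard error 0.09, limma adjusted p = 7.96e-06). Plod3 (ENSRNOG00000001417), a lysyl hydroxylase that also adds sugars to hydroxylysine, had 22.7, 23.0, 17.5 and 18.4 FPKM in OGD replicates 1 to 4, against 12.02, 10.9, 11.96 and 10.6 FPKM in Control replicates 1 to 4. OGD replicates 1 and 2 were the highest, and all 4 OGD libraries stood above the Control libraries (log2 change 0.78, standard error 0.10, limma adjusted p = 0.000112). Plod1 (ENSRNOG00000007763), which hydroxylates lysines of the helix, was the lowest of the 3, at 2.11 ± 0.428 FPKM in OGD and 1.296 ± 0.114 FPKM in Control libraries (SD, n = 4 each). Its groups did not overlap and its log2 change was 0.43 (limma, adjusted p = 0.0174), but without OGD replicate 2 it was 0.35 (limma, adjusted p = 0.0511).

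The sequence before the start of these 4 genes is shown because they rose together and some are known targets of the hypoxia-inducible factors, whose core site reads ACGTG or GCGTG. The 250 bases before the gene start are given 5′ to 3′ on the gene's strand, from RefSeq on GRCr8, a later build than that of the FPKM values, with each ACGTG or GCGTG on either strand in capitals (CACGT and CACGC are the same letters read on the other strand). They lie at chr20:27844796-27845045 (plus strand) for P4ha1, chr8:101964068-101964317 (plus strand) for Plod2, chr12:25323632-25323881 (minus strand) for Plod3 and chr5:163650738-163650987 (minus strand) for Plod1. Mmp15, which fell most among the Mmp genes, is added for contrast from chr19:9691001-9691250 (minus strand).
P4ha1: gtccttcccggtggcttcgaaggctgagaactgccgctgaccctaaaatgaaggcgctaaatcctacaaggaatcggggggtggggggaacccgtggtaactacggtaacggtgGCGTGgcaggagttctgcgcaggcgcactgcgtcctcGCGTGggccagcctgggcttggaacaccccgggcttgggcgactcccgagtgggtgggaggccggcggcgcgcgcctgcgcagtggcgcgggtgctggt
Plod2: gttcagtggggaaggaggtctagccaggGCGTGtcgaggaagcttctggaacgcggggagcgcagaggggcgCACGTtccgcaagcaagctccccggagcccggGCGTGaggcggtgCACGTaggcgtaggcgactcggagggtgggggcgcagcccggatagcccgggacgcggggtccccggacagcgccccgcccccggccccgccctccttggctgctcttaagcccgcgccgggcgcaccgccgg
Plod3: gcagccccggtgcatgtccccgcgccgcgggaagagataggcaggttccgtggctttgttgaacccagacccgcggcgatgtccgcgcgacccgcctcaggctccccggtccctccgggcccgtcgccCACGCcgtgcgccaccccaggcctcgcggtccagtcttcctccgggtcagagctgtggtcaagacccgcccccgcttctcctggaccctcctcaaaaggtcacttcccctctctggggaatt
Plod1: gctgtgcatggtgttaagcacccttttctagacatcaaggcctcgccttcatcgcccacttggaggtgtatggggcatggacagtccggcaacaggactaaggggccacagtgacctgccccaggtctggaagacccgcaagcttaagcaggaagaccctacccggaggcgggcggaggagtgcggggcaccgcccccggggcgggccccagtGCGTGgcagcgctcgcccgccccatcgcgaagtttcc
Mmp15: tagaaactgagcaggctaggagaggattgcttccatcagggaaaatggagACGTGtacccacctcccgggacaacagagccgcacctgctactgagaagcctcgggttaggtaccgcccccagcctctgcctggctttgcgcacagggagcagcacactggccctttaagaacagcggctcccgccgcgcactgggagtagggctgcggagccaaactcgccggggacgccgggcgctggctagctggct
The matches begin 136 and 99 bases before the start in P4ha1, 222, 178, 146 and 133 bases before it in Plod2, 122 bases before it in Plod3, 37 bases before it in Plod1 and 200 bases before it in Mmp15. RefSeq windows were found for 105 of the 143 symbols and 18 of the 22 that passed the test. At least 1 match stood in 5 of 6 members that rose, 7 of 12 that fell and 6 of 14 tested members that did not pass, against 37.9% of 27457 promoters of the same length. A match describes letters in this window and does not show binding.

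The remaining enzymes of this class were below the filter. P4ha2, the second catalytic prolyl 4-hydroxylase subunit, had 0.791, 0.819, 0.642 and 0.340 FPKM in OGD replicates 1 to 4, against 0.134, 0.0646, 0.0602 and 0.313 FPKM in Control replicates 1 to 4. All 4 OGD libraries were above the Control libraries, and with no filter it was called higher (log2 change 0.52, limma adjusted p = 0.00778). Loxl3, a lysyl oxidase that cross-links collagen, had 0.255, 0.232, 0.248 and 0.0803 FPKM in OGD replicates 1 to 4, against 0.568, 0.275, 0.384 and 0.489 FPKM in Control replicates 1 to 4, and with no filter was called lower (log2 change -0.25, limma adjusted p = 0.0477). Loxl2, of the same family, was at 0.120 to 0.583 FPKM in OGD and 0.295 to 0.433 FPKM in Control libraries. P4ha3, Lox, Loxl1 and Loxl4 stayed under 0.5 FPKM in every library; Lox itself was at 0.0404 to 0.116 FPKM in OGD and 0.0310 to 0.125 FPKM in Control libraries. P4ha1 thus held 97.9% to 99.2% of the summed P4ha level in OGD and 94.3% to 98.7% in Control libraries.

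Partners of these enzymes were read from a list of 22 genes of collagen folding, export and trimming, of which 21 matched and 15 were tested. Of the 15, 3 rose and 4 fell (20.0% and 26.7%, near the 22.7% and 26.8% of all tested genes), with 2 falling when OGD replicate 1, OGD replicate 2 or Control replicate 4 was left out. Colgalt2 (ENSRNOG00000028207), a galactosyltransferase that acts on hydroxylysine made by the lysyl hydroxylases, rose to 40.3 ± 2.28 FPKM in OGD against 18.02 ± 1.34 FPKM in Control libraries, a log2 change of 1.12 (limma, adjusted p = 1.30e-06). Its relative Colgalt1 fell, at 10.5 ± 0.564 FPKM in OGD against 12.6 ± 0.574 FPKM in Control libraries (log2 change -0.24, limma adjusted p = 0.0181, and 0.0581 without Control replicate 4). P3h4, a component of the lysyl hydroxylation complex, fell to 7.72 ± 0.187 FPKM in OGD against 10.98 ± 1.13 FPKM in Control libraries (log2 change -0.45, limma adjusted p = 0.00131). Tmem38b, an ER potassium channel needed for collagen modification, rose to 5.78 ± 0.812 FPKM in OGD against 3.82 ± 0.641 FPKM in Control libraries (log2 change 0.49, limma adjusted p = 0.00797). Fkbp7, a prolyl isomerase of the endoplasmic reticulum, was the third that rose (log2 change 0.44, limma adjusted p = 0.0251). That call was lost without OGD replicate 1 or 4 or Control replicate 1, 2 or 3 (limma adjusted p = 0.0534 to 0.0709). The isomerase Ppib and the export coat subunit Sec23a fell (log2 change -0.26 for Ppib and -0.21 for Sec23a, limma adjusted p = 0.0330 and 0.0211). The Ppib call was lost under 8 of 16 alternatives (limma adjusted p up to 0.162), among them leaving out OGD replicate 1, 2 or 3 or Control replicate 1 or 4. The Sec23a call was lost without OGD replicate 1 or 2 or Control replicate 2 (up to 0.0603). P4hb, the protein disulfide isomerase that is the beta subunit of prolyl 4-hydroxylase, was at 108.3 ± 5.45 FPKM in OGD against 109.0 ± 1.49 FPKM in Control libraries; its log2 change was -0.01 with a 95% interval of -0.14 to 0.12 (limma, adjusted p = 0.895). Serpinh1, the collagen chaperone, was at 1.23 ± 0.468 FPKM in OGD against 1.40 ± 0.383 FPKM in Control libraries and did not pass (log2 change -0.12, limma adjusted p = 0.605). Both signs turned under quantile normalization (0.09 for P4hb and 0.01 for Serpinh1).

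**Figure D3:**
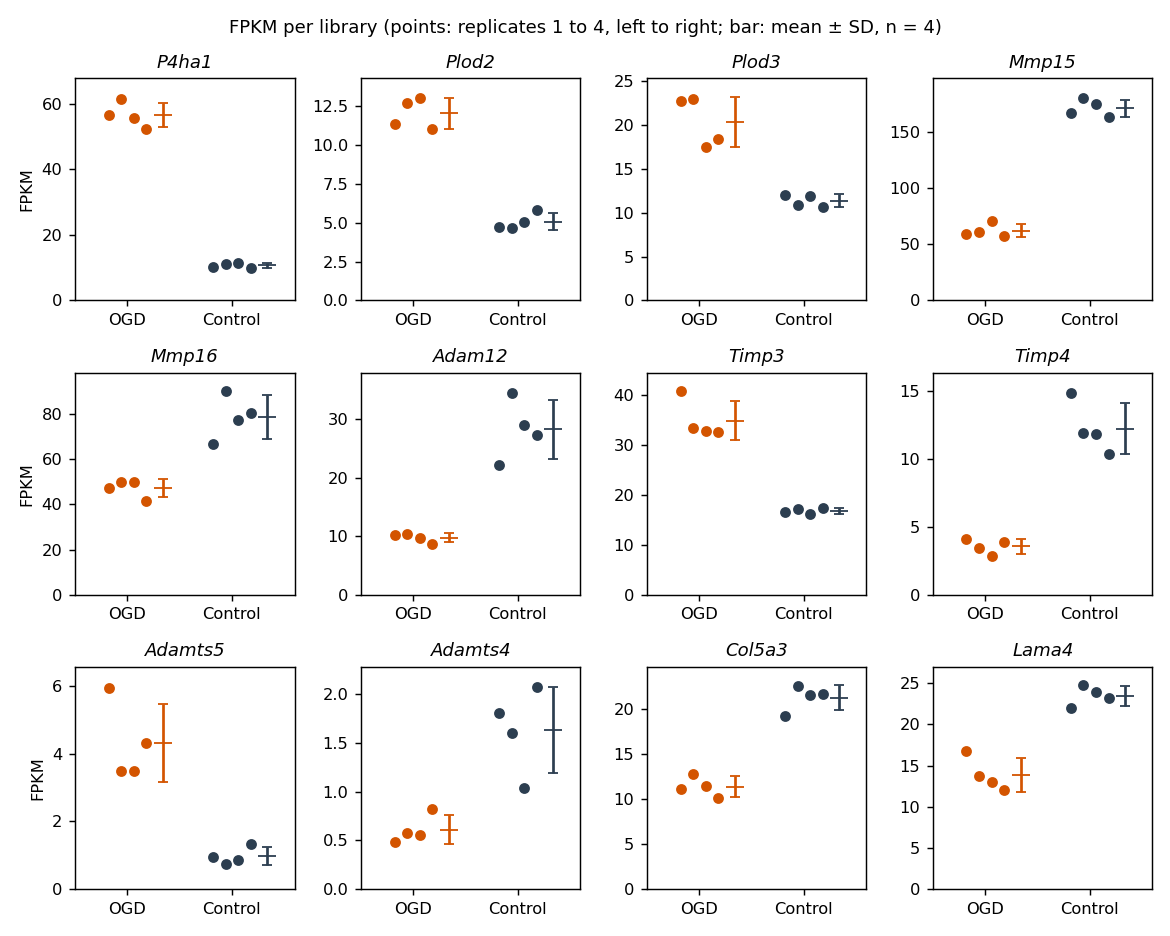
FPKM (vertical axes, each from 0) of 12 members in every library, OGD left of Control, with the mean and SD of 4 samples beside the points. The 12 were picked from members that passed the test, and the 2 groups do not overlap in any of their panels. P4ha1, Plod2, Plod3, Timp3 and Adamts5 are higher in OGD and the other 7 are lower. Of all 42 tested members 18 overlap. Every OGD sample lay above every Control sample for 20.7% of all tested genes and below for 24.1%.

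Of the collagens 9 of 44 were tested, of which 5 fell (55.6%, against 26.8% of all tested genes) and 0 rose. Only 3 fell when OGD replicate 3, OGD replicate 4 or Control replicate 3 was left out. Among fibril-forming chains, Col5a3 (ENSRNOG00000020525), the alpha 3 chain of type V collagen, had 11.1, 12.8, 11.5 and 10.1 FPKM in OGD replicates 1 to 4, against 19.3, 22.5, 21.6 and 21.7 FPKM in Control replicates 1 to 4. The groups were well apart (log2 change -0.85, standard error 0.08, limma adjusted p = 2.18e-05). Col5a1 (ENSRNOG00000008749), the main chain of type V collagen, had 2.33, 2.53, 2.41 and 1.93 FPKM in OGD replicates 1 to 4, against 3.28, 4.52, 4.21 and 4.27 FPKM in Control replicates 1 to 4. It too lay lower in all 4 OGD libraries (log2 change -0.62, limma adjusted p = 0.00133). Col5a2 was below the filter at 0.169 to 0.429 FPKM in OGD and 0.187 to 0.539 FPKM in Control libraries. Col11a1, which starts thin fibrils, had 6.11 to 7.22 FPKM in OGD and 5.67 to 6.09 FPKM in Control libraries, all OGD values above all Control values, and did not pass (log2 change 0.16, limma adjusted p = 0.154). Col27a1 was at 4.64 ± 1.69 FPKM in OGD and 6.62 ± 0.916 FPKM in Control libraries (SD, n = 4 each) and did not pass (log2 change -0.48, limma adjusted p = 0.0673), though it did without OGD replicate 2 (-0.64, adjusted p = 0.0138).

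The pair of type IV chains, which share a promoter region and join in one triple helix, parted. Col4a2 (ENSRNOG00000023972) had 2.94, 3.17, 2.18 and 2.17 FPKM in OGD replicates 1 to 4, against 4.30, 5.76, 5.66 and 6.29 FPKM in Control replicates 1 to 4. All OGD libraries were below the lowest Control library, a change of -0.85 on the log2 scale (standard error 0.14, limma adjusted p = 0.000495). Col4a1 (ENSRNOG00000016281) had 14.9, 13.6, 14.7 and 15.5 FPKM in OGD replicates 1 to 4, against 14.3, 17.4, 16.7 and 17.1 FPKM in Control replicates 1 to 4. Its groups overlapped and it did not pass (log2 change -0.15, 95% interval -0.32 to 0.03, limma adjusted p = 0.157), except without Control replicate 1 (-0.21, adjusted p = 0.0443). The Col4a2 to Col4a1 ratio was 0.180 ± 0.0438 in OGD and 0.335 ± 0.0281 in Control libraries (SD, n = 4 each). Pairs were tested by an exact permutation of the samples, two-sided, on the difference of log2 values, here with p = 0.0286 (adjusted p = 0.0343 over 6 pairs). No smaller p is possible with 4 samples a group. The 6 pairs were chosen after their values were seen, so their p-values describe the ratios and add no support to the calls.

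Of 3 tested fibril-associated chains, a group formed after the values were seen, 2 fell (66.7%, against 26.8% of all tested genes). Both calls were lost when certain single libraries were left out. Col9a3, a chain of type IX collagen, was at 2.13 ± 0.228 FPKM in OGD and 3.25 ± 0.904 FPKM in Control libraries (SD, n = 4 each), with the groups apart, and fell by 0.42 on the log2 scale (limma, adjusted p = 0.0327). The call was lost without OGD replicate 3 (limma adjusted p = 0.0801), OGD replicate 4 (0.0593), Control replicate 1 (0.0738) or Control replicate 3 (0.0558). Col16a1 had 10.996, 11.8, 6.49 and 7.03 FPKM in OGD replicates 1 to 4, against 11.7, 11.8, 13.5 and 11.96 FPKM in Control replicates 1 to 4. OGD replicates 1 and 2 lay among or next to the Control libraries and OGD replicates 3 and 4 far below, and the fall of 0.43 only just passed (limma, adjusted p = 0.0478). Without any 1 Control library its adjusted p was 0.0707 to 0.111, and without OGD replicate 3 or OGD replicate 4 it was 0.129 and 0.109. Col9a2 was at 1.03 ± 0.396 FPKM in OGD and 1.28 ± 0.207 FPKM in Control libraries (SD, n = 4 each) and did not pass (log2 change -0.18, limma adjusted p = 0.366). Col9a1, below the filter, was at 0.201 to 0.449 FPKM in OGD and 0.750 to 1.07 FPKM in Control libraries, without overlap. With no filter it was called lower (log2 change -0.48, limma adjusted p = 0.00429). Of 35 collagens below the filter, 4 were listed at 0 throughout and 26 others stayed under 0.5 FPKM. Col20a1, Col11a2 and Col6a1, whose groups overlapped, reached 0.5 FPKM in at least 1 library.

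Of 11 laminin chains, 2 were tested. Lama4 (ENSRNOG00000000599), the alpha 4 chain known from vessel and nerve basement membranes, had 16.8, 13.8, 13.0 and 12.03 FPKM in OGD replicates 1 to 4, against 22.0, 24.8, 23.9 and 23.2 FPKM in Control replicates 1 to 4. The groups were apart (log2 change -0.73, standard error 0.10, limma adjusted p = 0.000146). Lamc1 (ENSRNOG00000002680), the gamma 1 chain shared by most laminins, had 25.6, 25.6, 23.3 and 18.4 FPKM in OGD replicates 1 to 4, against 20.9, 24.2, 22.6 and 21.3 FPKM in Control replicates 1 to 4. It overlapped between groups (log2 change 0.05, 95% interval -0.18 to 0.28, limma adjusted p = 0.714). The beta chains were far lower per length: Lamb1 was at 0.156 to 0.226 FPKM in OGD and 0.123 to 0.279 FPKM in Control libraries, and Lamb2 at 0.226 to 0.341 FPKM in OGD and 0.118 to 0.356 FPKM in Control libraries. Lama5, an alpha chain of adult basement membranes, had 0.583, 0.884, 0.440 and 0.404 FPKM in OGD replicates 1 to 4, against 0.271, 0.262, 0.209 and 0.230 FPKM in Control replicates 1 to 4. All OGD values were above all Control values, and with no filter it was called higher (log2 change 0.33, limma adjusted p = 0.0247). The other 6 laminin chains stayed under 0.5 FPKM in every library.

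In a list of 20 other matrix proteins and matrix receptors, 13 were tested, of which 2 rose and 3 fell (15.4% and 23.1%, against 22.7% and 26.8% of all tested genes). Ddr1 and Ddr2, receptor tyrosine kinases that bind collagen, both rose. Ddr1 was at 30.0 ± 0.893 FPKM in OGD against 21.0 ± 1.69 FPKM in Control libraries (limma, adjusted p = 0.000220). Ddr2 was at 2.31 ± 0.266 FPKM in OGD against 0.631 ± 0.183 FPKM in Control libraries (limma, adjusted p = 0.000112). Ddr2 reached 1 FPKM in OGD libraries only and is untested without any 1 of them. Dag1, the laminin receptor dystroglycan, fell to 49.5 ± 3.77 FPKM in OGD against 70.7 ± 4.40 FPKM in Control libraries (limma, adjusted p = 0.000226). Bcam, a receptor for laminin alpha 5, fell to 2.42 ± 0.254 FPKM in OGD against 5.07 ± 0.600 FPKM in Control libraries (limma, adjusted p = 0.000159). Nid1, which links laminin to type IV collagen, fell to 4.02 ± 0.145 FPKM in OGD against 5.12 ± 0.631 FPKM in Control libraries (limma, adjusted p = 0.0346). The call was lost when OGD replicate 1, 2 or 3 or Control replicate 3 or 4 was left out (0.0525 to 0.110). Itgb1, the beta 1 integrin of most laminin and collagen receptors, was at 87.7 ± 5.81 FPKM in OGD against 80.9 ± 5.22 FPKM in Control libraries and did not pass (limma, adjusted p = 0.193), except under quantile normalization (0.0186). In these libraries 11 of 12 microglial and 5 of 8 precursor markers fell, while the precursor markers Olig2, Sox10 and Nkx2-2 did not pass. The 11 include 2 that reached 1 FPKM in Control libraries only. The part of these cells in the lower structural chains and receptors was not tested.

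Of the 22 Mmp genes 7 were tested, of which 4 fell (57.1%, against 26.8% of all tested genes) and 0 rose. All 4 belong to the membrane-type enzymes, of which 5 were tested, and 0 of 2 secreted enzymes passed; this grouping was made after the values were seen. Mmp15 (ENSRNOG00000012622), membrane-type 2, had the highest mean over the 8 libraries of all members, with 58.8, 60.7, 70.5 and 57.5 FPKM in OGD replicates 1 to 4, against 166.7, 180.1, 174.3 and 163.3 FPKM in Control replicates 1 to 4. The groups were far apart (log2 change -1.46, standard error 0.07, limma adjusted p = 2.15e-07). Mmp16 (ENSRNOG00000005708), membrane-type 3, had 47.2, 49.8, 50.1 and 41.6 FPKM in OGD replicates 1 to 4, against 66.7, 90.4, 77.2 and 80.5 FPKM in Control replicates 1 to 4. It was lower in every OGD library, by a smaller amount (log2 change -0.72, standard error 0.09, limma adjusted p = 0.000138). The Mmp16 to Mmp15 ratio was 0.764 ± 0.0557 in OGD and 0.459 ± 0.0472 in Control libraries (SD, n = 4 each), without overlap between the groups (exact permutation p = 0.0286, adjusted p = 0.0343, for a pair chosen after its values were seen).

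Mmp24, membrane-type 5, an enzyme of the nervous system, was at 11.2 ± 0.806 FPKM in OGD and 15.02 ± 0.663 FPKM in Control libraries (SD, n = 4 each) and fell without overlap (log2 change -0.39, limma adjusted p = 0.00147). Mmp17 (ENSRNOG00000023643), the membrane-type 4 enzyme held by a lipid anchor, had 0.878, 1.26, 1.502 and 0.728 FPKM in OGD replicates 1 to 4, against 2.53, 2.45, 2.13 and 2.06 FPKM in Control replicates 1 to 4. The OGD values were all under the lowest Control value (log2 change -0.67, limma adjusted p = 0.00285). Mmp14, membrane-type 1, was at 0.853 ± 0.422 FPKM in OGD and 1.05 ± 0.229 FPKM in Control libraries (SD, n = 4 each), with overlapping groups (log2 change -0.16, limma adjusted p = 0.463). Mmp2, the secreted gelatinase A, had 3.30, 3.63, 3.80 and 6.66 FPKM in OGD replicates 1 to 4, against 4.74, 4.97, 5.11 and 6.12 FPKM in Control replicates 1 to 4. OGD replicate 4 stood above all Control libraries and the other 3 OGD libraries below them, so that Mmp2 did not pass (log2 change -0.26, limma adjusted p = 0.231) but did without that library (-0.44, adjusted p = 0.00721). Mmp11, secreted stromelysin 3, was at 1.18 ± 0.494 FPKM in OGD and 1.68 ± 0.177 FPKM in Control libraries (SD, n = 4 each) and likewise passed only without OGD replicate 4 (log2 change -0.32, limma adjusted p = 0.121, and 0.0216 without it). Of the 15 Mmp genes below the filter, 11 were listed at 0 in every library. Mmp19 overlapped at 0.341 to 0.859 FPKM in OGD and 0.281 to 0.678 FPKM in Control libraries, and Mmp9, gelatinase B, was listed at 0 in 7 libraries and at 0.0563 FPKM in OGD replicate 4.

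**Figure D4:**
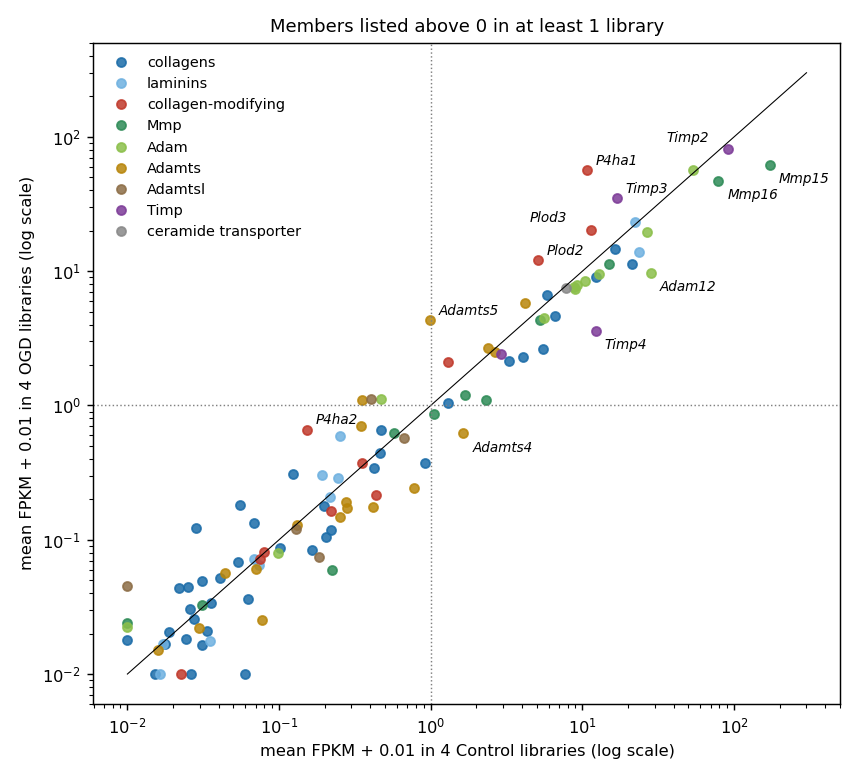
Mean FPKM + 0.01 in 4 OGD libraries (vertical, log scale) against that in 4 Control libraries (horizontal, log scale) for each member listed above 0 in at least 1 library, coloured by class; the solid line marks equal levels and the dotted lines 1 FPKM. P4ha1, Plod2, Plod3, Timp3 and Adamts5 lie above the line and Mmp15, Mmp16, Adam12, Timp4 and Adamts4 below it, and most members lie under 1 FPKM in both groups.

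Of the 25 Adam genes 9 were tested, of which 3 fell (33.3%, near the 26.8% of all tested genes) and 0 rose, or 5 fell without Control replicate 1. The 3 were among 6 members with protease activity, a grouping made after the values were seen. Adam12 (ENSRNOG00000018384), a sheddase and adhesion protein also called meltrin alpha, had 10.3, 10.3, 9.71 and 8.64 FPKM in OGD replicates 1 to 4, against 22.2, 34.5, 28.9 and 27.4 FPKM in Control replicates 1 to 4. The lowest Control library was more than 2 times the highest OGD library (log2 change -1.43, standard error 0.12, limma adjusted p = 6.61e-06). Adam10 (ENSRNOG00000054257), which sheds Notch and many other surface proteins, had 19.2, 20.4, 19.8 and 19.3 FPKM in OGD replicates 1 to 4, against 23.5, 30.0, 26.4 and 27.1 FPKM in Control replicates 1 to 4. Its groups did not overlap (log2 change -0.42, standard error 0.08, limma adjusted p = 0.00119). Adam15 was at 9.48 ± 0.897 FPKM in OGD and 12.8 ± 0.283 FPKM in Control libraries (SD, n = 4 each), also without overlap (log2 change -0.40, limma adjusted p = 0.00206).

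Adam9 (ENSRNOG00000017231), the most abundant Adam gene, had 56.5, 56.1, 58.4 and 55.0 FPKM in OGD replicates 1 to 4, against 51.8, 55.2, 55.4 and 52.1 FPKM in Control replicates 1 to 4. The groups overlapped and the log2 change was 0.07, with a 95% interval of -0.05 to 0.20 (limma, adjusted p = 0.300). The Adam10 to Adam9 ratio was 0.349 ± 0.0116 in OGD and 0.498 ± 0.0408 in Control libraries (SD, n = 4 each), without overlap between the groups (exact permutation p = 0.0286, adjusted p = 0.0343, for a pair chosen after its values were seen). Adam17, the enzyme that releases TNF and EGF receptor ligands, was at 7.83 ± 0.632 FPKM in OGD and 9.19 ± 0.302 FPKM in Control libraries (SD, n = 4 each). All its OGD values were below its Control values, yet it fell short of the threshold (log2 change -0.21, limma adjusted p = 0.0518) and passed under 7 of 16 alternatives, among them median-centred libraries (0.0315), quantile normalization (0.0401) and leaving out OGD replicate 4 (0.0310). Adam19, which sheds neuregulins, was at 7.67 ± 0.586 FPKM in OGD and 8.82 ± 0.566 FPKM in Control libraries (SD, n = 4 each) and did not pass (log2 change -0.18, limma adjusted p = 0.101).

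The 3 tested members that lack protease activity did not pass. Adam22, a synaptic receptor, was at 8.41 ± 1.31 FPKM in OGD and 10.4 ± 1.66 FPKM in Control libraries (SD, n = 4 each) (log2 change -0.28, limma adjusted p = 0.0963), and passed without OGD replicate 1 (0.0396) or Control replicate 1 (0.0203). Adam23 was at 7.37 ± 0.888 FPKM in OGD and 8.98 ± 1.49 FPKM in Control libraries (SD, n = 4 each) (log2 change -0.25, limma adjusted p = 0.122, and 0.0227 without Control replicate 1). Adam11 had 5.82, 7.29, 3.03 and 1.70 FPKM in OGD replicates 1 to 4, against 5.52, 7.34, 5.03 and 4.39 FPKM in Control replicates 1 to 4. OGD replicates 3 and 4 were below every Control library and OGD replicates 1 and 2 were within their range (log2 change -0.38, limma adjusted p = 0.315). Of 16 Adam genes below the filter 13 were listed at 0 in all libraries. Adam8, a leukocyte and microglial sheddase, reached 1 FPKM in 2 libraries only, with 1.71, 1.41, 0.766 and 0.510 FPKM in OGD replicates 1 to 4, against 0.328, 0.265, 0.690 and 0.565 FPKM in Control replicates 1 to 4.

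Of the 19 Adamts genes 5 were tested, of which 1 rose and 1 fell (20.0% each, near the 22.7% and 26.8% of all tested genes). The 2 were the main aggrecanases, enzymes that cut aggrecan, brevican and versican. Adamts5 (ENSRNOG00000057794) had 5.94, 3.50, 3.50 and 4.32 FPKM in OGD replicates 1 to 4, against 0.952, 0.737, 0.857 and 1.34 FPKM in Control replicates 1 to 4. Its lowest OGD value was more than 2 times its highest Control value (log2 change 1.42, standard error 0.16, limma adjusted p = 5.36e-05). Adamts4 (ENSRNOG00000003538) had 0.480, 0.579, 0.551 and 0.824 FPKM in OGD replicates 1 to 4, against 1.81, 1.601, 1.04 and 2.07 FPKM in Control replicates 1 to 4. All OGD values were below all Control values (log2 change -0.70, standard error 0.15, limma adjusted p = 0.00336). The Adamts4 to Adamts5 ratio was 0.149 ± 0.0474 in OGD and 1.71 ± 0.418 in Control libraries (SD, n = 4 each), without overlap between the groups (exact permutation p = 0.0286, adjusted p = 0.0343). Adamts4 reached 1 FPKM in Control libraries only, and the pair was chosen with both genes already called in opposite directions. The p of the ratio is therefore no further support.

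The other Adamts genes did not pass or were low. Adamts10, a protease of fibrillin microfibrils and the most abundant of the class, had 7.92, 7.70, 3.87 and 3.70 FPKM in OGD replicates 1 to 4, against 4.56, 3.79, 4.04 and 4.22 FPKM in Control replicates 1 to 4. OGD replicates 1 and 2 were above the Control libraries, and OGD replicates 3 and 4 were at or below the lower end of their range (log2 change 0.34, limma adjusted p = 0.204). Adamts20 was spread in the same way, with 3.81, 3.21, 2.01 and 1.57 FPKM in OGD replicates 1 to 4, against 2.24, 2.75, 2.27 and 2.25 FPKM in Control replicates 1 to 4 (log2 change 0.07, limma adjusted p = 0.779; -0.08 without OGD replicate 1 and -0.01 without OGD replicate 2). Adamts7 was at 2.47 ± 0.393 FPKM in OGD and 2.64 ± 0.292 FPKM in Control libraries (SD, n = 4 each) (log2 change -0.07, limma adjusted p = 0.654). Adamts1, another proteoglycan-cutting member, was below the filter with 1.31, 0.997, 0.771 and 1.29 FPKM in OGD replicates 1 to 4, against 0.339, 0.394, 0.275 and 0.350 FPKM in Control replicates 1 to 4. Its groups were apart, and with no filter it was called higher (log2 change 0.64, limma adjusted p = 0.00151), while Adamts17 (-0.51, adjusted p = 0.00592) and Adamts3, a procollagen-trimming enzyme (-0.27, adjusted p = 0.0171), were called lower. Adamts6 was at 0.433 to 1.11 FPKM in OGD and 0.315 to 0.357 FPKM in Control libraries, without overlap. Adamtsl3, an ADAMTS-like protein with no protease domain, had 1.13, 1.19, 1.04 and 1.03 FPKM in OGD replicates 1 to 4, against 0.278, 0.423, 0.608 and 0.261 FPKM in Control replicates 1 to 4. Its log2 change was 0.60 (limma, adjusted p = 0.00382). The other ADAMTS-like genes were below the filter, and Adamtsl2 overlapped at 0.322 to 1.056 FPKM in OGD and 0.537 to 0.736 FPKM in Control libraries.

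All 4 Timp genes were tested, and 1 rose, 1 fell and 2 did not pass. The shares that rose and fell (25.0% each) were near the 22.7% and 26.8% of all tested genes. Timp3 (ENSRNOG00000004303), which is bound to matrix and also blocks Adam17 and the aggrecanases, had 40.8, 33.4, 32.9 and 32.6 FPKM in OGD replicates 1 to 4, against 16.5, 17.2, 16.1 and 17.4 FPKM in Control replicates 1 to 4. OGD replicate 1 was the highest, and the lowest OGD library was far above the highest Control library (log2 change 1.01, standard error 0.08, limma adjusted p = 5.52e-06). Timp4 (ENSRNOG00000007955) had 4.12, 3.43, 2.86 and 3.88 FPKM in OGD replicates 1 to 4, against 14.8, 11.9, 11.8 and 10.3 FPKM in Control replicates 1 to 4. Its OGD values were all less than 0.5 of the lowest Control value (log2 change -1.53, standard error 0.12, limma adjusted p = 5.92e-06). Timp2 (ENSRNOG00000003148), the most abundant inhibitor and a partner of Mmp14 in activating Mmp2, had 76.1, 76.9, 92.6 and 78.2 FPKM in OGD replicates 1 to 4, against 84.4, 93.9, 90.5 and 93.5 FPKM in Control replicates 1 to 4. OGD replicate 3 was within the Control range and the other 3 below it, so that Timp2 did not pass (log2 change -0.16, limma adjusted p = 0.0903) but did without that library (-0.23, adjusted p = 0.0150). Timp1 had 2.66, 2.73, 2.60 and 1.68 FPKM in OGD replicates 1 to 4, against 2.22, 3.58, 1.56 and 4.17 FPKM in Control replicates 1 to 4. The Control libraries spread more widely than the OGD libraries, and the log2 change of -0.14 (limma, adjusted p = 0.608) was 0.02 without Control replicate 4.

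Shares within the inhibitor class moved with these members. The Timp4 to Timp3 ratio was 0.102 ± 0.0131 in OGD and 0.728 ± 0.126 in Control libraries (SD, n = 4 each), without overlap between the groups (exact permutation p = 0.0286, adjusted p = 0.0343). With Timp3 already called higher and Timp4 lower, this separation was fixed when the pair was chosen, and its p is no further support. Timp3 held 25.2% to 33.0% of the summed Timp level in OGD and 13.4% to 14.0% in Control libraries, and Timp2 held 61.5% to 70.7% and 71.5% to 75.4% in OGD and Control libraries. The sixth pair, Plod2 over Plod3, had ratios of 0.600 ± 0.106 in OGD and 0.449 ± 0.0699 in Control libraries (SD, n = 4 each), which overlapped (exact permutation p = 0.0857, adjusted p = 0.0857).

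**Figure D5:**
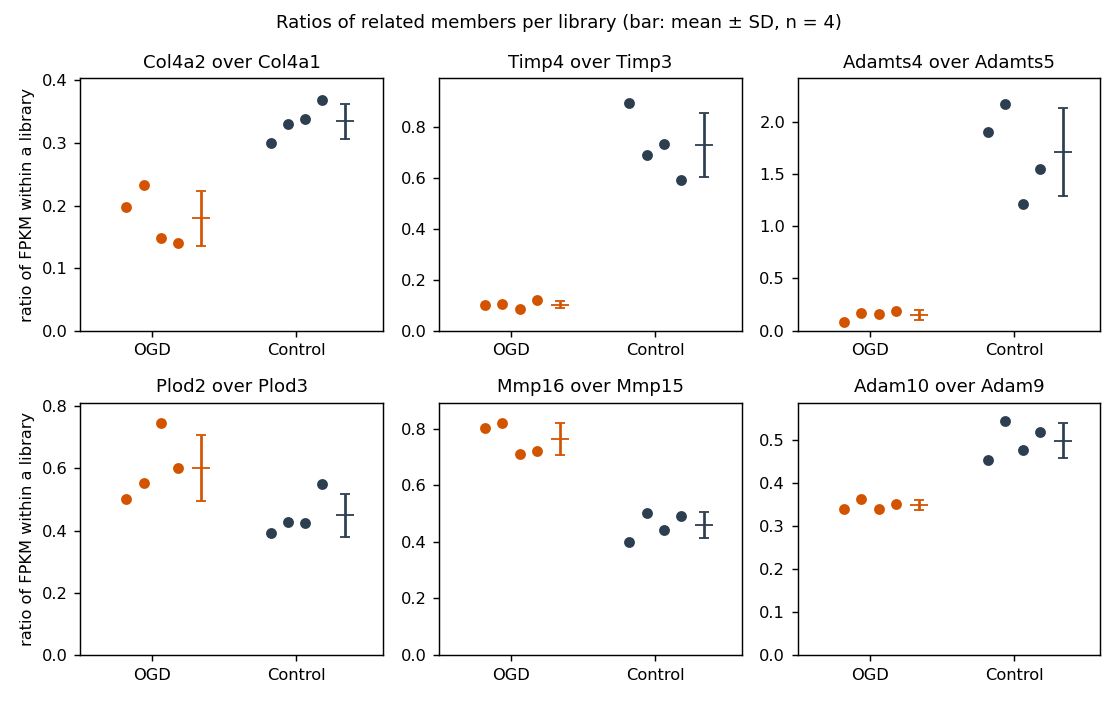
Ratio of the FPKM of 2 related members within each library (vertical axes, from 0), OGD left of Control, with the mean and SD of 4 samples. The groups do not overlap except for Plod2 over Plod3. Mmp16 over Mmp15 is higher in OGD, and Col4a2 over Col4a1, Timp4 over Timp3, Adamts4 over Adamts5 and Adam10 over Adam9 are lower. The 6 pairs were chosen after their values were seen, so their separation adds no support to the calls.

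In a list of 20 regulators and partner proteases, 15 were tested, of which 5 fell and 0 rose (33.3% lower, against 26.8% of all tested genes). Htra1, a secreted serine protease, fell to 1.23 ± 0.409 FPKM in OGD against 2.71 ± 0.361 FPKM in Control libraries (limma, adjusted p = 0.00190). Cd44, a hyaluronan receptor that docks Mmp enzymes at the cell surface, fell to 2.24 ± 0.606 FPKM in OGD against 4.52 ± 0.661 FPKM in Control libraries (limma, adjusted p = 0.00194). Serpine2, an inhibitor of thrombin and plasminogen activators, fell to 335.0 ± 25.6 FPKM in OGD against 410.2 ± 7.12 FPKM in Control libraries (limma, adjusted p = 0.00481). The lysosomal protease Ctsb fell to 118.2 ± 18.6 FPKM in OGD against 169.0 ± 27.9 FPKM in Control libraries (limma, adjusted p = 0.00637). Ctsl was the fifth (log2 change -0.43, limma adjusted p = 0.0128). Reck, a membrane inhibitor of Mmp enzymes, was at 2.28 ± 0.636 FPKM in OGD against 2.76 ± 0.124 FPKM in Control libraries, and Furin, which activates membrane-type Mmp and Adam proenzymes, at 6.54 ± 0.377 FPKM in OGD against 7.46 ± 0.380 FPKM in Control libraries; neither passed (limma, adjusted p = 0.227 for Reck and 0.114 for Furin). Ctsb, Ctsl and Cd44 are also expressed by microglia, and 11 of 12 microglial markers fell in these libraries. The 11 include 2 that reached 1 FPKM in Control libraries only. The part of microglia in these values was not tested.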

How the data were processed

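The authors deposited 1 table of gene-level FPKM for 8 RNA-seq libraries, per the file headers. The submitters' processing notes name FastQC, Trimmomatic and the build rn6 (Rnor_6.0). No source used here gives the aligner, the FPKM program, the annotation or whether strand was used, so overlapping and antisense genes cannot be told apart. FPKM are not counts, and no count test was run. Low values stepped by whole fragments for 83.6% to 85.7% of the genes compared (tolerance 0.01 on the log2 scale), which gave relative depth only.

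Genes that reached 1 FPKM in 4 or more libraries were fitted with limma 3.58.1 (R 4.3.3, trended) on log2(FPKM + 1), with group as the only term and Benjamini-Hochberg adjustment over 11149 genes. On data simulated for this comparison, 40%, 72%, 94% and 100% of genes changed 1.25-, 1.5-, 2- and 4-fold were recovered (50 of each among 11149). Of the 161 calls in that simulation 8 were false. Far fewer genes were changed there than were called in the data (2527 higher and 2992 lower). The changed genes were drawn only from genes with a mean, taken on the log2 scale, of at least 5 FPKM. The rates were not split further by level and do not give the recovery of members near 1 FPKM. The members and lists were chosen with earlier results of these data known, and subgroups and pairs after values were seen. All tested members are named. Values in every sample are given for members called with a fold of at least 1.5 on the FPKM + 1 scale, for those with the 2 smallest p or the highest mean of a class, for all Timp genes and for some others chosen after their values were seen. The 4 genes with the smallest p of each list are named; P4hb, Serpinh1, Itgb1, Reck and Furin were added after values were seen. The alternatives, 16 in all, changed the filter, pseudocount, scaling, trend or replicate block or left out libraries. Promoter sequences are RefSeq's on GRCr8 and were matched by symbol.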

Additional observations from a re-analysis of the deposited data

Results flagged for a closer look

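Single libraries stood apart from the other 3 of their group by Dixon's criterion in 9 of 138 groups of 4 examined, where chance flags about 1 in 20, or 6.9. In OGD libraries, Mmp2 was at 6.66 FPKM in replicate 4 (3.30 to 3.80 in the others), Timp2 at 92.6 FPKM in replicate 3 (76.1 to 78.2), Timp3 at 40.8 FPKM in replicate 1 (32.6 to 33.4), Timp1 at 1.68 FPKM in replicate 4 (2.60 to 2.73) and Loxl3 at 0.0803 FPKM in replicate 4 (0.232 to 0.255). In Control libraries, Col16a1 was at 13.5 FPKM in replicate 3, Adamts20 at 2.75 FPKM in replicate 2 (2.24 to 2.27 in the others), Mmp19 at 0.281 FPKM in replicate 3 (0.623 to 0.678) and the laminin receptor Bcam at 4.17 FPKM in replicate 2 (5.32 to 5.42). The cause was not tested.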

How the results depend on the processing

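Of the 22 called members 19 kept their call under every alternative that tested them; Col16a1, Col9a3 and Plod1 lost it under some. Over the tested members and the named list genes, 906 of 979 values kept direction and side of the threshold, 43 lost the threshold, 23 gained it and 7 changed sign; the cause was not tested. Those 7 were Adamts7 (0.0019), Serpinh1 (0.0141) and P4hb (0.0901) under quantile normalization, P4hb without OGD replicate 1 (0.02), Timp1 without Control replicate 4 (0.0151) and Adamts20 without OGD replicate 1 (-0.0776) or OGD replicate 2 (-0.0132), none called. With a filter of 5 FPKM, which tests fewer genes, 4 members, 0 proteases and 2 listed pathway genes rose and 3 structural chains fell. With no filter, 1 structural chain and 2 proteases rose and 1 collagen-modifying enzyme fell. Without OGD replicate 4 and Control replicate 1 together 3 pathway genes rose.

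With 1 library left out, 5 to 7 members rose and 12 to 16 fell; 0 structural chains rose and 4 to 7 fell; 1 protease rose and 7 to 11 fell; 3 to 4 collagen-modifying enzymes rose; 1 Timp gene rose and 1 to 2 fell, the 2 without OGD replicate 3; and 3 to 5 pathway genes rose, 3 without OGD replicate 1, and 9 to 13 fell. The log2 change ranged from -0.0776 to 0.2229 for Adamts20, from -0.3239 to 0.0151 for Timp1 and from -0.0389 to 0.02 for P4hb. With the replicate block 2497 of all genes rose and 3012 fell, against 2527 and 2992 without it, and of the tested members and named list genes Col27a1 alone changed its call, passing with an adjusted p of 0.0290 (limma). Deviations of same-numbered samples correlated by -0.22, 0.16, 0.01 and 0.09, not all above 0.1, so the numbers were not taken to pair the samples; only OGD replicate 2 correlated best with its own. The 101 members that did not reach the filter were not tested in the main comparison, and total depth, which sets their precision, is unknown.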
